A study of Nothobranchius furzeri with 30 samples.

Results

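The genes described here are those of the cone phototransduction cascade downstream of the opsins, in the retina of ageing killifish. They were chosen by name alone: every locus whose gene name, without its copy number, is ARR3, GNAT2, PDE6C, PDE6H, CNGA3, CNGB3, GRK7, GNB3 or GNGT2, copies marked by a final letter included. Described are 8 of the 24989 loci, namely GNAT2 (XLOC_021014), GNB3A (XLOC_011223), PDE6C (XLOC_018345), CNGA3B (XLOC_016245), CNGB3 (XLOC_014142), GRK7A (XLOC_003005), GRK7(1OF2) (XLOC_012300) and ARR3(1OF2) (XLOC_005300). Each of these names was carried by 1 locus, but a suffix such as (1OF2) marks a gene with a further copy, and how reads shared by near-identical copies were assigned is uncertain. Of the 8, 5 could be matched to a RefSeq gene, and the names given there were gnat2, pde6c, cngb3.1 and grk7b (for GRK7(1OF2)), while CNGA3B had only a locus number. No locus was named PDE6H or GNGT2 in the first name column.

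Neural retinas of wildtype female killifish of the inbred GRZ-AD strain were collected at 6, 12 and 18 weeks of age, after removal of the retinal pigment epithelium (RPE). There were 10 fish per age, the fish were untreated, and the retinas of each animal were pooled into a single sample. RNA was measured by QuantSeq, which reads the 3′ end of a transcript, so counts do not scale with the length of the transcript. All fish were female and of a single strain, and no other sex or strain was compared.

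In a cone, light-activated opsin switches on the G protein transducin, whose alpha subunit is GNAT2 and whose beta subunit is GNB3. Transducin relieves the inhibition of the phosphodiesterase PDE6C, cGMP falls, and the cation channel built from CNGA3 and CNGB3 closes. The response is ended when the kinase GRK7 phosphorylates the opsin and a cone arrestin (ARR3) binds it. Rods use a parallel set of proteins: GNAT1, GNB1, PDE6A and PDE6B, CNGA1 and CNGB1, GRK1 and the arrestin SAG.

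Libraries held 3552371 to 5840792 counts on loci, of which the cone loci took 0.309% to 0.529% in all. 18-week fish 1 stood apart from the other libraries: its median correlation of log2 CPM with the other fish of its age was 0.883, against 0.947 for the next lowest of the 30 fish. Results of the cone loci are therefore also given without it where it moved them, and those of the other gene lists are not. The markers of the RPE, which should have been removed, differed between ages. The summed level of 14 RPE marker loci ranged from 1142 to 2325 CPM (the cpm values of edgeR, counts scaled to a common library size with TMM factors) at 6 weeks, from 397 to 2494 CPM at 12 weeks and from 481 to 1213 CPM at 18 weeks. At 18 against 6 weeks 12 of these 14 loci fell, with a median log2 fold change (log2FC) of -1.38 over the list, and none of the 14 was at 0 in all fish of an age. In bulk retina, fewer cones and less RNA per cone cannot be told apart.

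At 18 weeks the cone cascade was lower than at 6 weeks at most of its steps. ARR3(1OF2), PDE6C and GRK7A fell by 44.7% to 47.9% relative to 6 weeks, CNGA3B fell by 25.3% and GNAT2 by 19.5%. GNB3A had a log2FC of -0.29 that missed the threshold, and CNGB3 had a log2FC of 0.11. By the quasi-likelihood test of edgeR, with Benjamini-Hochberg adjusted p-values over 13975 loci (false discovery rate, FDR, under 0.05), 5 of the 7 tested loci were lower and 0 higher, while 15.2% of all tested loci were lower and 14% higher. At an unadjusted p under 0.05, 6 loci were lower and 0 higher, and DESeq2 called 5 lower and 0 higher. The shares above are of edgeR's FDR calls, and shares of all tested loci under these other rules are not given. The median log2FC of the 7 loci was -0.42, against 0.02 for all tested loci. No cone locus was past both the FDR and an absolute log2FC of 1, thresholds that 3.34% of all tested loci passed, and DESeq2 also placed 0 there. The 7 tested loci had at least 67 counts in every fish, so each passed the filter on low counts at all ages.

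**Figure D1:**
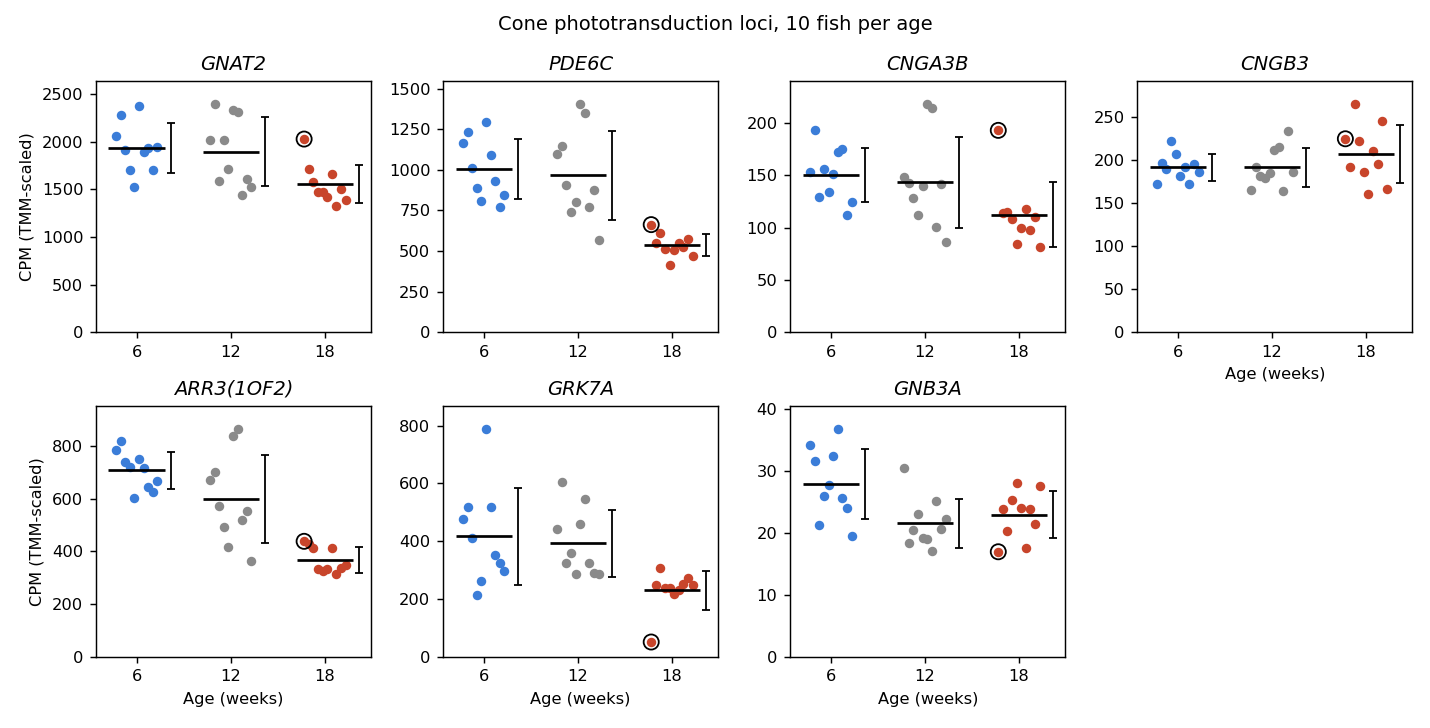
TMM-scaled CPM (vertical axis, linear and starting at 0) of the 7 tested cone loci in each fish at 6, 12 and 18 weeks (horizontal axis). Points are fish, horizontal lines are means, vertical bars are SD (n = 10 per age) and the ringed point is 18-week fish 1. For PDE6C the 18-week fish lie between 416 and 662 CPM, all below the 6-week fish, whereas for CNGB3 the ages overlap.

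GNAT2, the alpha subunit of cone transducin and the most abundant of the tested loci, had 1525, 1927 and 2374 CPM (lowest, median and highest fish) at 6 weeks, 1439, 1866 and 2398 CPM at 12 weeks and 1327, 1489 and 2028 CPM at 18 weeks. Of the 10 fish of 18 weeks, 9 were below the 6-week median, and the exception was 18-week fish 1, the highest of its age. The log2FC at 18 against 6 weeks was -0.31 (SE 0.0982, FDR = 0.0145, edgeR's quasi-likelihood test), and without fish 1 it was -0.37 (FDR = 0.00186, same edgeR test).

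GNB3A, by its name the cone transducin beta subunit, was the least abundant of the tested loci. Its means were 27.9 ± 5.71, 21.6 ± 3.94 and 22.9 ± 3.80 CPM at 6, 12 and 18 weeks (SD, n = 10 each). GNAT2, the alpha subunit, averaged 1934 CPM at 6 weeks, and whether the GNB3A locus is expressed in cones was not tested. The 2 older groups overlapped the 6-week fish, and the log2FC was -0.29 at 18 against 6 weeks (SE 0.116, FDR = 0.0595, edgeR). Leaving out 1 of the 30 fish brought this value past the threshold in 5 of 30 fits, with FDR of 0.0366 and 0.0283 without 6-week fish 3 and 10, 0.0485 without 12-week fish 1, and 0.0403 and 0.0402 without 18-week fish 5 and 10 (edgeR).

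PDE6C, the catalytic subunit of the cone phosphodiesterase, had 770, 971 and 1297 CPM (lowest, median, highest) at 6 weeks, 570, 890 and 1406 CPM at 12 weeks and 416, 537 and 662 CPM at 18 weeks. All fish of 18 weeks were below all fish of 6 weeks, while the 12-week fish overlapped both. The log2FC at 18 against 6 weeks was -0.90 (SE 0.124, FDR = 8.62e-07, edgeR).

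The 2 channel subunits differed. CNGA3B, the subunit that forms a cGMP-gated channel by itself in expression systems, had a mean of 112 ± 31.0 CPM at 18 weeks, against 150 ± 25.5 CPM at 6 weeks (SD, n = 10 each). Its log2FC was -0.42 (SE 0.140, FDR = 0.0212, edgeR), and 6 of 10 fish of 18 weeks were below every 6-week fish. 18-week fish 1 had 193 CPM and the next highest fish of that age 118 CPM, and without fish 1 the log2FC was -0.54 (FDR = 0.000730, edgeR). CNGB3, the modulatory subunit, had 172, 191 and 222 CPM (lowest, median, highest) at 6 weeks, 164, 186 and 234 CPM at 12 weeks and 161, 203 and 265 CPM at 18 weeks. The ages overlapped on both sides, and the log2FC at 18 against 6 weeks was 0.11 (95% interval -0.06 to 0.28, FDR = 0.332, edgeR). The spread of CNGB3 between fish was wider at 18 weeks, with a coefficient of variation of 16.2%, against 7.96% at 6 weeks.

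Among the genes that end the response, GRK7A (opsin kinase) had 215, 383 and 790 CPM (lowest, median, highest) at 6 weeks, 285, 342 and 606 CPM at 12 weeks and 51.1, 243 and 307 CPM at 18 weeks. It was the most variable of the 7 loci at 6 weeks, with a coefficient of variation of 40.4%. All 10 fish of 18 weeks were below the 6-week median, although the ranges overlapped, and the log2FC was -0.86 (SE 0.204, FDR = 0.00158, edgeR). Without 18-week fish 1 it was -0.74 (FDR = 0.000445, edgeR). The second kinase locus, GRK7(1OF2), was close to absent: its counts summed over the 10 fish of an age were 7 at 6 weeks, 11 at 12 weeks and 7 at 18 weeks. It had at most 7 counts in any fish, it did not pass the filter, and at 18 weeks all 7 counts came from 1 fish. A count of 0 in a library allows up to 3 counts, which is 0.514 to 0.845 CPM, counting error only.

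The arrestin locus ARR3(1OF2) had 602, 717 and 819 CPM (lowest, median, highest) at 6 weeks, 362, 563 and 865 CPM at 12 weeks and 313, 342 and 438 CPM at 18 weeks. Every 18-week fish was below every 6-week fish, and the log2FC was -0.94 (SE 0.114, FDR = 7.99e-08, edgeR). With PDE6C, 2 of the 7 loci had no overlap between these ages, with the older fish below the younger, as did 1.33% of all tested loci.

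Another 2 loci carried cone names only in the second name column of the deposited annotation and were not counted as members. OLA.21063 (XLOC_007962, second name pde6h, the inhibitory subunit of cone phosphodiesterase) averaged 7358 ± 1461 CPM at 18 weeks and 7235 ± 627 CPM at 6 weeks, with a log2FC of 0.02 (FDR = 0.889, edgeR). GNG8 (XLOC_018205, second name gngt2, the cone transducin gamma subunit) averaged 3738 ± 567 CPM at 18 weeks and 4376 ± 568 CPM at 6 weeks, with a log2FC of -0.23 (FDR = 0.116, edgeR; SD, n = 10 each).

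Calls among the cone loci were made at 18 against 12 weeks and not at 12 against 6 weeks. At 12 against 6 weeks 0 of the 7 loci passed the FDR, where 2.2% of all tested loci did in either direction. At an unadjusted p under 0.05, 2 loci were lower (GNB3A and ARR3(1OF2)), and DESeq2 called 0, again with no share of all loci given. The log2FC of GNB3A and ARR3(1OF2) were -0.37 (SE 0.118, FDR = 0.0879, edgeR) and -0.24 (SE 0.113, FDR = 0.311, edgeR). The median over the 7 loci was -0.07. GNB3A passed the FDR in 3 of the 30 fits that left out 1 fish, those without 6-week fish 10 (FDR = 0.0484), 12-week fish 1 (FDR = 0.0304) and 18-week fish 1 (FDR = 0.0361, all edgeR). At 18 against 12 weeks 4 of 7 loci were lower and 0 higher, against 6.93% of all tested loci lower and 5.19% higher. At an unadjusted p under 0.05, 5 were lower and 0 higher, and DESeq2 called 4 lower and 0 higher. For these counts too the share of all tested loci is not given.

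The log2FC at 18 against 12 weeks were -0.85 for PDE6C (SE 0.124), -0.77 for GRK7A (SE 0.204), -0.70 for ARR3(1OF2) (SE 0.114) and -0.28 for GNAT2 (SE 0.0982). The call of GNAT2 was marginal (FDR = 0.0499, edgeR) and was lost in 21 of the 30 fits that left out 1 fish. CNGA3B had a log2FC of -0.35 (FDR = 0.0930, edgeR), and it passed in 2 of 30 such fits, at -0.41 without 12-week fish 10 (FDR = 0.0396) and at -0.47 without 18-week fish 1 (FDR = 0.00851, edgeR). Whether the 2 intervals differed was not tested, since both comparisons use the 12-week fish.

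The calls of several loci rested on the scaling. With library size alone in place of TMM factors, the median log2FC of all tested loci at 18 against 6 weeks was 0.32, and 6441 loci were called higher and 637 lower, against 1952 higher and 2124 lower with TMM factors. PDE6C, ARR3(1OF2) and GRK7A remained lower, at -0.60, -0.64 and -0.56. CNGA3B (-0.12) and GNAT2 (-0.01) were no longer called, GNB3A turned to 0.02, and CNGB3 was called higher at 0.41 (FDR = 0.000157, edgeR). Relative to the median of all loci, the values were close under both scalings: -0.34 with library size and -0.33 with TMM factors for GNAT2, and 0.09 under both for CNGB3. A change of scaling shifts all loci of a comparison by nearly the same amount, so this closeness was fixed in advance. It does not show which scaling is right.

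**Figure D2:**
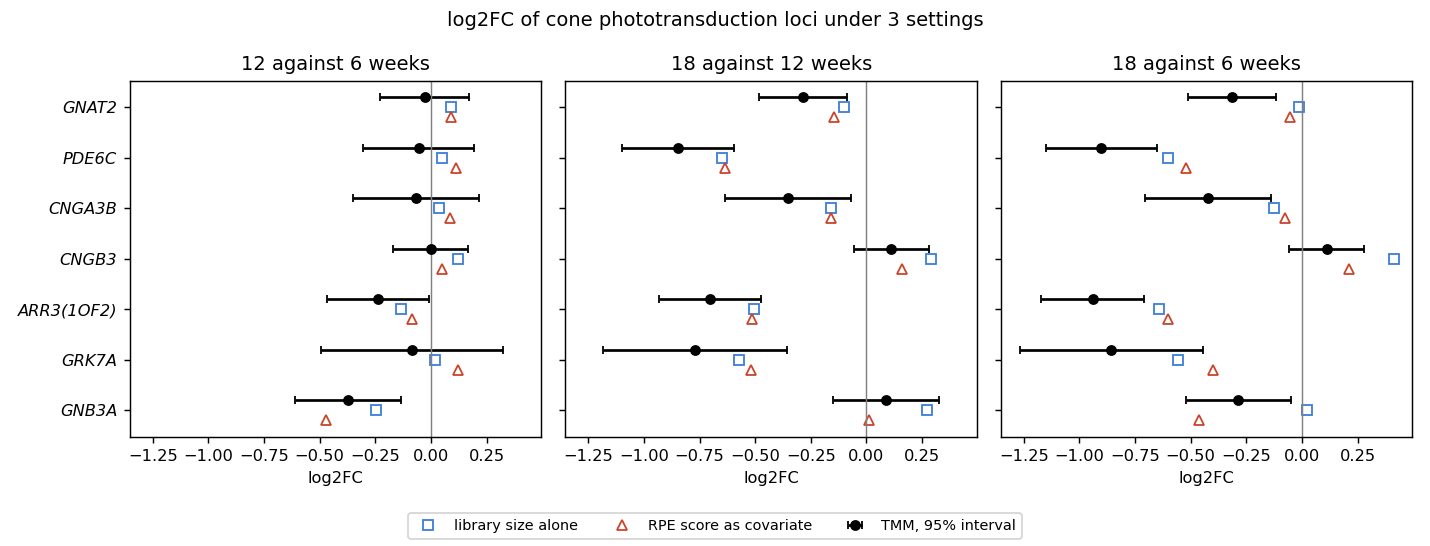
log2FC (horizontal axis) of the 7 tested cone loci (vertical axis) in the 3 age comparisons, one panel each. Black points are edgeR estimates with TMM factors and their 95% intervals, blue squares are estimates with library size alone, and red triangles are TMM estimates with the RPE score as a covariate. At 18 against 6 weeks PDE6C and ARR3(1OF2) stay at or below -0.52 in all 3 settings, whereas GNAT2 lies at -0.31, -0.01 and -0.05.

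The RPE markers fell beside the cone loci, and their level was added to the fit as a covariate (RPE score, the mean log2 CPM of the 14 RPE loci). With it, 2 of the 7 cone loci remained lower at 18 against 6 weeks, ARR3(1OF2) at -0.60 (FDR = 0.00570, edgeR) and PDE6C at -0.52 (FDR = 0.0270, edgeR). How many of all loci were called in this comparison with the score is given in the closing section. GRK7A had a log2FC of -0.40 in this fit (FDR = 0.374), CNGA3B -0.07 (FDR = 0.850) and GNAT2 -0.05 (FDR = 0.836, all edgeR). At 18 against 12 weeks PDE6C (-0.64, FDR = 0.000934) and ARR3(1OF2) (-0.51, FDR = 0.00365) remained lower in this fit, while GRK7A (-0.52, FDR = 0.132) and GNAT2 (-0.14, FDR = 0.434, all edgeR) were no longer called. The score was at most 5.08 in any fish of 18 weeks and at least 5.17 in any fish of 6 weeks. These 2 ages did not overlap in it, and across them age and RPE score cannot be told apart. The score varied most at 12 weeks, with an SD of 0.706, against 0.388 at 18 weeks and 0.269 at 6 weeks.

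Within the 12-week fish 5 of the 7 cone loci were higher in fish with a higher RPE score. Pearson's r of log2 CPM with the score was 0.90 for GNAT2, 0.86 for GRK7A, 0.80 for PDE6C, 0.76 for ARR3(1OF2) and 0.75 for CNGA3B (n = 10 fish, given as a description). CNGB3 had r = 0.42 and GNB3A r = -0.49. For the same 5 loci r lay between -0.39 and -0.03 within the 6-week fish and between -0.16 and 0.47 within the 18-week fish. Over all 30 fish with the age means subtracted, 0 of the 7 loci had a relation with the score that passed the correction, and 5 had an unadjusted p under 0.05 by Pearson's r (permutation tests within ages). PDE6C had the highest r, 0.51 (adjusted p = 0.0588), with a Spearman's rho of 0.42 (adjusted p = 0.117, permutation tests). Its r was 0.40 without the 2 fish farthest from the median score and 0.58 without 18-week fish 1. Within 6, 12 and 18 weeks it was -0.27, 0.80 and 0.21, so the relation did not hold within 6 weeks.

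**Figure D3:**
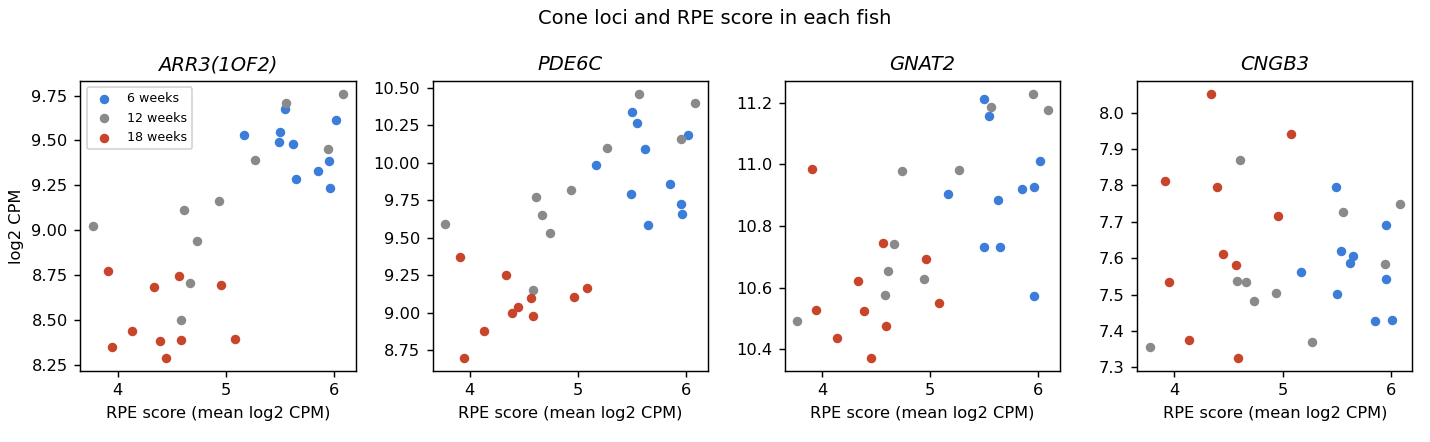
log2 CPM (vertical axes, not starting at 0) of 4 cone loci against the RPE score, the mean log2 CPM of 14 RPE marker loci (horizontal axis), with 1 point per fish coloured by age. The 12-week fish run along a rising line for ARR3(1OF2), PDE6C and GNAT2 (r = 0.76, 0.80 and 0.90), and the 6-week fish do not.

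Ratios between loci of the same library do not depend on the scaling, and each cone locus was set against a rod counterpart in the same fish. The counterpart was chosen by gene name (PDE6B for PDE6C), taking the most abundant locus where a name had several. The ratios are called cone to rod by these names alone. Whether each counterpart, GRK1B and GNB1A included, is expressed in rods alone was not tested. At 18 against 6 weeks 6 of 7 cone to rod ratios were lower (permutation tests, two-sided, 21 tests over 3 comparisons). For this and later counts of ratios, the share of changed ratios among other pairs of loci was not computed. The largest change was that of the kinases: the log2 ratio of GRK7A to GRK1B averaged 0.72 ± 0.313 at 18 weeks and 2.41 ± 0.595 at 6 weeks (SD, n = 10 each). The ratio fell by 1.69 on the log2 scale (adjusted p = 0.00014, permutation test), and in 10 of 10 fish it was below all 6-week fish. GRK1B itself was higher, with a log2FC of 0.96 (FDR = 0.000176, edgeR), beside -0.86 for GRK7A. The other GRK1 locus, GRK1(2OF2), was lower, at -0.53 (FDR = 0.00385, edgeR). The arrestin ratio came next, with ARR3(1OF2) to SAGA at -1.30 (adjusted p = 0.00014, permutation test). The unadjusted p of both ratios was 2e-05, the smallest that the two-sided test with its 100000 resamples can give. 10 of 10 fish of 18 weeks lay below all 6-week fish for the arrestin ratio too.

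In the channel, CNGA3B to CNGA1(2OF2) changed by -0.69 (adjusted p = 0.00534) and CNGB3 to CNGB1A by -0.40 (adjusted p = 0.0021, permutation tests). CNGB3 itself did not pass a test of its level, while CNGB1A averaged 218 ± 55.0 CPM at 18 weeks and 151 ± 12.8 CPM at 6 weeks (SD, n = 10 each). GNB3A to GNB1A changed by -0.39 (adjusted p = 0.00688) and PDE6C to PDE6B by -0.60 (adjusted p = 0.0318, permutation tests). Without 18-week fish 1 PDE6C to PDE6B changed by -0.78 (adjusted p = 0.000105, permutation test). PDE6B, a catalytic subunit of the rod phosphodiesterase, averaged 76.9 ± 18.5 CPM at 18 weeks and 92.8 ± 18.7 CPM at 6 weeks. PDE6A, the other catalytic subunit of the rod enzyme, was more abundant, with 257 ± 20.4 CPM at 18 weeks and 248 ± 17.0 CPM at 6 weeks (SD, n = 10 each). Set against PDE6A, a ratio added after the others had been seen, PDE6C changed by -0.94 at 18 against 6 weeks and by -0.79 at 18 against 12 weeks (adjusted p = 8.4e-05 each, permutation tests), and in both comparisons 10 of 10 fish of 18 weeks lay below all younger fish.

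The transducin ratio was decided by 1 library. GNAT2 to GNAT1 averaged -0.23 ± 0.990 at 18 weeks and 0.06 ± 0.128 at 6 weeks, a difference of -0.29 (adjusted p = 0.468, permutation test). 18-week fish 1 had a ratio of 2.47 and 365 CPM of GNAT1, against 1702 to 2785 CPM in the other 9 fish of its age. Without this fish the difference was -0.59 (adjusted p = 0.00014, permutation test), and 7 of 7 ratios were lower at 18 than at 6 weeks. 18-week fish 1 was also the highest of its age for GNAT2, PDE6C, CNGA3B and ARR3(1OF2), and the lowest for GRK7A and GNB3A.

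**Figure D4:**
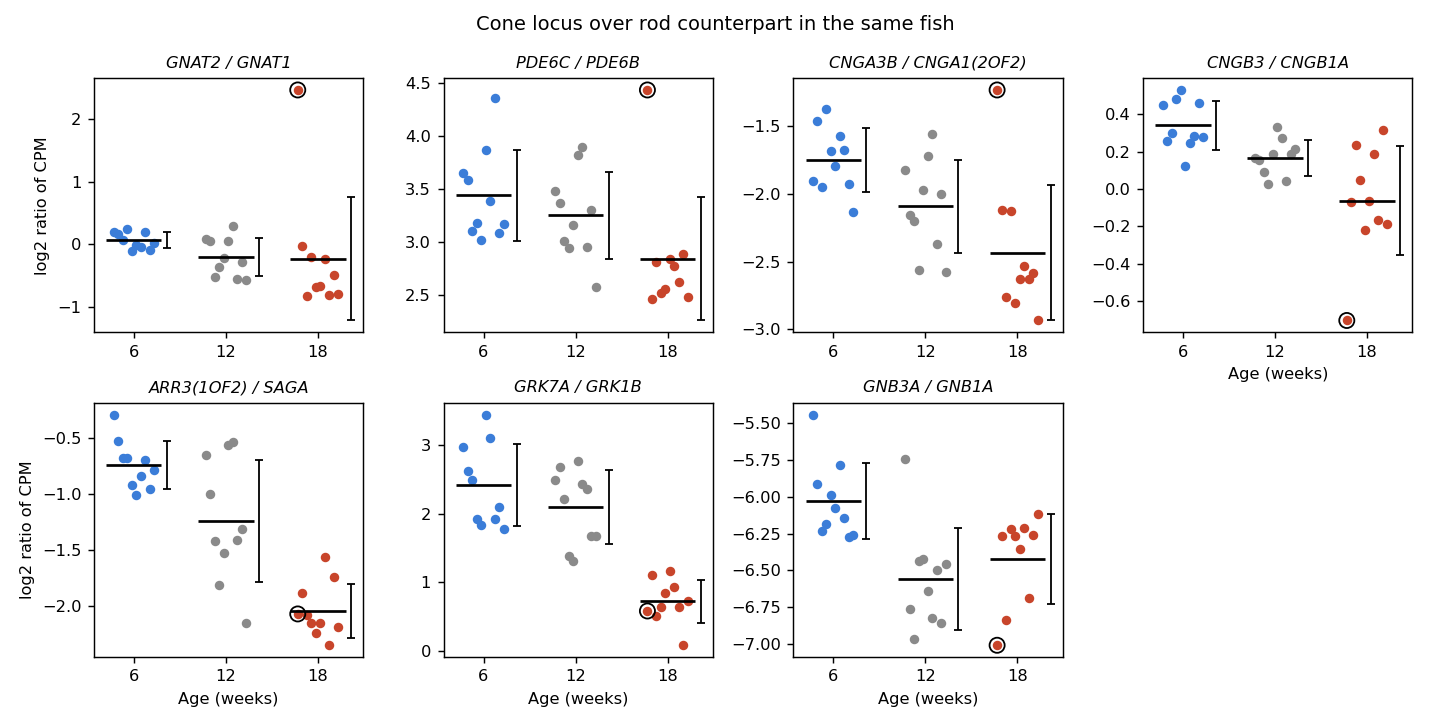
log2 ratio of CPM of each cone locus to its rod counterpart in the same fish (vertical axes, a separate range per panel) at 6, 12 and 18 weeks (horizontal axis). Points are fish, horizontal lines are means, vertical bars are SD (n = 10 per age), and the ringed point is 18-week fish 1. GRK7A over GRK1B at 18 weeks lies below all younger fish, and the ringed fish lies at 2.47 for GNAT2 over GNAT1.

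At 12 against 6 weeks 5 of the 7 cone to rod ratios were lower, although no cone locus had passed the test of its level: GNB3A to GNB1A at -0.53, ARR3(1OF2) to SAGA at -0.50, CNGA3B to CNGA1(2OF2) at -0.34, GNAT2 to GNAT1 at -0.26 and CNGB3 to CNGB1A at -0.17 (adjusted p = 0.00385, 0.0295, 0.0322, 0.0337 and 0.00938, permutation tests). This count was 3 without 6-week fish 2 or 4 and without 12-week fish 4 or 8, and 2 without 12-week fish 10. At this step the 12 loci with rod phototransduction names had log2FC of 0.06 to 0.31, with a median of 0.20. The counterparts were at 0.18 (GNB1A), 0.22 (SAGA), 0.24 (CNGA1(2OF2)), 0.22 (GNAT1) and 0.17 (CNGB1A). The cone loci were at -0.37, -0.24, -0.07, -0.03 and -8.22e-05 in the same order. A lower ratio here need not be a fall of the cone locus. The ratios were adjusted over 21 tests and the levels over 13975 loci, so calls of ratios and of levels are not directly comparable. At 18 against 12 weeks 3 of 7 ratios were lower, those of GRK7A, ARR3(1OF2) and CNGB3, and 6 of 7 without 18-week fish 1. PDE6C to PDE6B differed by -0.41 there (adjusted p = 0.119), and by -0.59 without 18-week fish 1 (adjusted p = 0.00181, permutation tests). With PDE6A in place of PDE6B and all fish kept, 4 of 7 were lower.

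Within the cone cascade the loci did not keep their proportions. Of the 21 pairs of the 7 loci, 12 had a changed ratio at 18 against 6 weeks (permutation tests, two-sided, adjusted over 21). These pairs were added after the log2FC of the loci had been seen. The 21 ratios share the same 7 loci, so they are not independent and restate differences between the log2FC above. How often ratios of other loci changed was not computed. GNAT2 rose relative to PDE6C by 0.58 and relative to ARR3(1OF2) by 0.63, with all 10 fish of 18 weeks above all fish of 6 weeks in both ratios (adjusted p = 0.000105 each, permutation tests). ARR3(1OF2) to CNGB3 averaged 0.84 ± 0.240 at 18 weeks and 1.88 ± 0.197 at 6 weeks (SD, n = 10 each), a difference of -1.04, and the ratio of PDE6C to CNGB3 differed by -0.99 (adjusted p = 0.000105 each, permutation tests). The within-cascade ratio of the channel subunits, CNGB3 to CNGA3B, was higher by 0.54 at 18 weeks (adjusted p = 0.00229, permutation test). Among the 3 loci that fell most no changed ratio was detectable: PDE6C to ARR3(1OF2) differed by 0.05, PDE6C to GRK7A by -0.02 and ARR3(1OF2) to GRK7A by -0.07 (adjusted p = 0.50, 0.979 and 0.893, permutation tests). Without 18-week fish 1 the ratios to GRK7A differed by -0.28 for PDE6C and by -0.33 for ARR3(1OF2) (adjusted p = 0.0511 and 0.0856, permutation tests).

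Fish with more of a given cone locus than their age mean tended to have more of several others. Over 30 fish with age means subtracted, 6 of 21 pairs had a positive Pearson's r of log2 CPM with an adjusted p under 0.05 (permutation tests within ages, adjusted over 21 pairs). These 6 were all the pairs among GNAT2, PDE6C, ARR3(1OF2) and CNGA3B, with r between 0.72 and 0.89. PDE6C and ARR3(1OF2) were the closest pair, with r = 0.89 (adjusted p = 3.5e-05) and rho = 0.86 (adjusted p = 7e-05, permutation tests, both from an unadjusted p of 1e-05, the smallest that the resamples can give). Within ages r was 0.86, 0.97 and 0.68 at 6, 12 and 18 weeks, and without the 2 fish farthest from the median PDE6C level it was 0.83. PDE6C and CNGA3B had r = 0.84 and rho = 0.79 (adjusted p = 3.5e-05 and 7e-05, permutation tests), with r between 0.65 and 0.94 within ages and 0.76 without the 2 farthest fish.

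GNAT2 and GRK7A had an r of 0.24 over all fish (adjusted p = 0.238, permutation test) and of 0.71 without 18-week fish 1, and within 18 weeks r was -0.74 with that fish. CNGB3 had no positive pair past the threshold, and with GNB3A it had r = -0.47 and rho = -0.53 (adjusted p = 0.0283 and 0.00808, permutation tests). For that pair r was -0.12, -0.70 and -0.58 within 6, 12 and 18 weeks and -0.48 without the 2 farthest fish. With GNAT1, named for rod transducin, GRK7A had r = 0.79 and rho = 0.50 (adjusted p = 0.00224 and 0.0273, permutation tests). That r was 0.53 without 18-week fish 1 and 0.89, -0.03 and 0.97 within 6, 12 and 18 weeks. CNGA3B and GNAT1 had r = -0.52 and rho = -0.34 (adjusted p = 0.0418 and 0.189, permutation tests), and r was -0.25 without 18-week fish 1. No other cone locus passed with GNAT1.

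**Figure D5:**
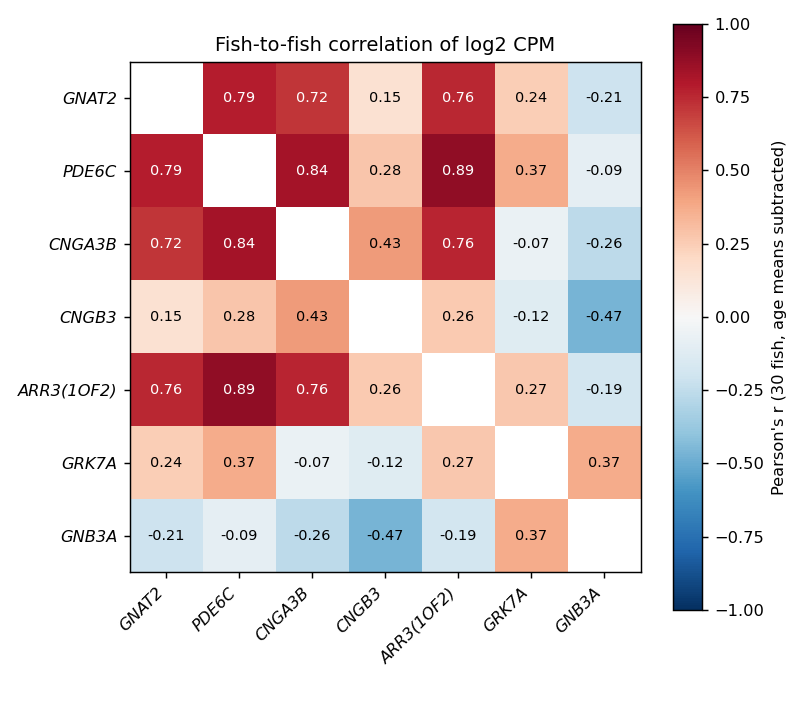
Pearson's r of log2 CPM between the 7 tested cone loci over 30 fish after subtracting the mean of each age, with the value printed in each cell and colour from -1 (blue) to 1 (red). PDE6C and ARR3(1OF2) reach 0.89, and CNGB3 and GNB3A stand apart, with -0.47 between them.

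The loci whose level followed a cone locus most closely from fish to fish were sought for GNAT2, PDE6C and CNGB3 among named loci outside the cascade, as a description over 30 fish with age means subtracted. For GNAT2 they were PDC(2OF2) (phosducin, which binds transducin beta and gamma subunits, r = 0.93), Nfu_p_1_043180 (0.90) and Nfu_p_1_004068 (0.89), where 99% of loci had an r of at most 0.70. For PDE6C they were LDHB(2OF2), a lactate dehydrogenase subunit, MXRA7 and ES1, with r = 0.92, 0.92 and 0.89 and a 99th percentile of 0.69. For CNGB3 the values were lower, at 0.70 for Nfu_p_1_031460, 0.68 for SEPT7, a septin, and 0.66 for ARHGAP18, with a 99th percentile of 0.48. At 18 against 6 weeks the log2FC was -0.58 for PDC(2OF2), -0.60 for LDHB(2OF2) and -0.47 for MXRA7 (FDR = 0.0011, 0.00112 and 0.00135, edgeR). Nfu_p_1_043180 (-0.43, FDR = 0.0056) and Nfu_p_1_004068 (-0.37, FDR = 0.00647) were also lower, and SEPT7 was higher (0.95, FDR = 0.000425, all edgeR). ES1 (-0.17), Nfu_p_1_031460 (-0.07) and ARHGAP18 (-0.12) did not pass (FDR = 0.590, 0.595 and 0.416, edgeR).

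Genes on a list of recovery and calcium feedback changed in both directions. The list also held genes whose products bind transducin subunits, such as UNC119 and PDC(2OF2). Of the 21 tested loci of this list, 9 were lower and 2 higher at 18 against 6 weeks, with a median log2FC of -0.15. Of all tested loci, 15.2% were lower and 14% higher. The 5 with the smallest p were GUCA1C (-1.10, a guanylate cyclase activator), UNC119 (-0.95, which binds the lipid tail of transducin alpha subunits), RD3 (0.84, which inhibits guanylate cyclase), UNC119B (-0.55) and PDC(2OF2) (-0.58), with FDR of 1.53e-07, 3.04e-07, 4.27e-06, 0.000117 and 0.0011 (edgeR). GUCA1C averaged 34.2 ± 8.90 CPM at 18 weeks and 73.5 ± 14.1 CPM at 6 weeks, and UNC119 224 ± 43.5 CPM at 18 weeks and 433 ± 74.4 CPM at 6 weeks (SD, n = 10 each). RD3 went the other way, with 320 ± 39.5 CPM at 18 weeks and 178 ± 39.1 CPM at 6 weeks (SD, n = 10 each).

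Of 5 tested cone-associated loci outside the rule, 3 were lower and 0 higher, beside 15.2% lower and 14% higher of all tested loci. The median log2FC of the 5 was -0.55. The lower loci were GUCA1C, SLC24A2(2OF2) (-0.56, the cone sodium/calcium, potassium exchanger, FDR = 0.00336) and THRB (-0.55, a thyroid hormone receptor needed for some cone types in mice and zebrafish, FDR = 0.0204, edgeR). SIX7 (0.12) and TBX2B (-0.18) did not pass. GUCA1C and SLC24A2(2OF2) stand on both lists. Of 12 loci with rod phototransduction names, 5 were higher and 1 lower at 18 against 6 weeks, beside 14% higher and 15.2% lower of all tested loci. The median log2FC of the 12 was 0.13, and whether they are expressed in rods alone was not tested. The 5 with the smallest p were CNGB1A (0.53), GRK1B (0.96), SAGA (0.36), GRK1(2OF2) (-0.53) and PDE6G (0.23). Of 2 tested photoreceptor transcription factors, CRX was higher (0.38, FDR = 0.0256, edgeR) and NRL, which specifies rods, had a log2FC of -0.11 (FDR = 0.709, edgeR). Their summed level was 139, 180 and 386 CPM (lowest, median, highest) at 18 weeks and 114, 158 and 204 CPM at 6 weeks. Whether the call of CRX rested on a single fish was not tested.

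Markers of other retinal cells were read against the 14% of all tested loci that were higher and the 15.2% that were lower at 18 against 6 weeks. Of 4 rod markers 1 was higher and 0 lower, of 4 Müller glia markers 3 were higher and 0 lower, of 5 immune cell markers 5 were higher, and of 9 bipolar cell markers 1 was higher and 2 lower. The 4 rod markers (GNAT1, SAGA, PDE6B and NRL) also stand on the rod and transcription factor lists above and are not separate loci. Müller glia markers summed to 970 to 1252 CPM at 18 weeks and 602 to 721 CPM at 6 weeks, and immune markers to 289 to 516 CPM at 18 weeks and 96.3 to 236 CPM at 6 weeks. No red blood cell marker passed the filter. Apart from the fit with the RPE score, the part of these shifts in the levels of the cone loci was not tested.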

How the data were processed

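Retinal RNA of 30 killifish (10 per age) was sequenced by QuantSeq 3′ mRNA-seq. The authors trimmed reads with Trim-Galore 0.6.7 (Cutadapt 3.4, FastQC 0.11.9), mapped them to a custom transcriptome with STAR 2.7.0 and counted them with HTSeq 0.11.2, and the deposited files hold raw counts per locus. Locus names came from a deposited annotation whose other columns, the authors' pooled single-cell summary (cell counts, percent detection and a mean expression signal), were not used for any result. Ages came from the sample labels. Reads on no feature (18.0% to 27.7%) and ambiguous reads were left out.

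Of 24989 loci, 13975 passed the defaults of filterByExpr in edgeR 4.0.16 (R 4.3.3, with limma 3.58.1). The 30 fish were scaled with TMM factors and fitted together by glmQLFit, each age having its own coefficient, and glmQLFTest p-values were adjusted after Benjamini-Hochberg. The study called loci past an FDR of 0.05 and an absolute log2FC of 1 together, and the FDR alone was used here in addition. The scaling and filter of its fit are not given in the sources used here. The standard error was the absolute log2FC over the square root of F. Ratios within a fish used log2 CPM with a prior count of 2 and 100000 permutations, two-sided, in NumPy 2.4.6 (Python 3.11.15). Correlations used permutations within ages, with ranks for Spearman's rho from SciPy 1.17.1. The fit was also run on counts simulated from its own model, with as many loci raised as lowered. That simulation cannot test the choice of scaling, and its outcome is not given here.

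Named genes are the members, the rod counterparts, up to 5 loci with the smallest p per list, and the 3 named loci most correlated with GNAT2, PDE6C and CNGB3. Further loci of the cone-associated and transcription factor lists are named although they missed the threshold. A further locus that matches the name rule is not reported here. Members, lists and tests were chosen with earlier results of these data known. Alternatives were 4 other scalings, 2 other filters, DESeq2 1.42.0, robust quasi-likelihood, the 20 fish compared, a replicate block, an RPE score covariate, a prior count of 0.5 and leaving out each fish. Ratios among cone loci, the ratio of PDE6C to PDE6A, glmTreat against a log2FC of 0.2 and correlations without 18-week fish 1 were added after seeing the data. Genome coordinates, sequences and promoter motifs were not analysed here.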

Additional observations from a re-analysis of the deposited data

Results flagged for a closer look

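In 21 groups of 10 fish (7 cone loci at 3 ages), 3 single values lay far from the rest of their age by Dixon's criterion, which flags about 1 group in 20 by chance. They came from 6-week fish 6 and 18-week fish 1. GRK7A had 790 CPM in 6-week fish 6, against 520 CPM in the next highest fish and a median of 383 CPM. GRK7A had 51.1 CPM in 18-week fish 1, against 216 CPM in the next lowest fish and a median of 243 CPM. CNGA3B had 193 CPM in 18-week fish 1, against 118 CPM in the next highest fish and a median of 109 CPM. In that fish GRK1B (33.9 CPM), PDE6B (30.2 CPM) and GNAT1 (365 CPM) were also the lowest of their age, and CNGB1A (366 CPM) and SAGA (1837 CPM) the highest.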

How the results depend on the processing

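The count of lower cone loci at 18 against 6 weeks (5) was 2 with the RPE score as covariate, 3 with library size alone and 3 when tested against a log2FC of 0.2, and that at 18 against 12 weeks (4) was 2 with the RPE score. The count of all loci lower at 18 against 12 weeks with the RPE score is not given. With library size alone 1 cone locus (CNGB3) was higher at 18 against 6 and at 18 against 12 weeks. With that scaling 6441 and 2941 of all 13975 tested loci were higher in these comparisons. The share of higher among called loci at 18 against 6 weeks was 91.0% with library size and 47.9% with TMM factors, at 12 against 6 weeks 90.4% and 58.8%, and at 18 against 12 weeks 88.0% and 42.8%. GNB3A turned to 0.022 at 18 against 6 weeks with library size. At 12 against 6 weeks library size turned GRK7A to 0.016, CNGB3 to 0.12, CNGA3B to 0.036, PDE6C to 0.051 and GNAT2 to 0.088, and the RPE score turned GRK7A to 0.12, CNGB3 to 0.051, CNGA3B to 0.084, PDE6C to 0.11 and GNAT2 to 0.090. CNGB3 turned to 0.0011 without abundant loci in the scaling, 0.0028 without a filter, 0.0017 with the CPM filter and 0.0023 in the fit of 20 fish. The causes were not tested.

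All loci called at 18 against 6 weeks were 653 higher and 841 lower with the RPE score, and 1017 higher and 1210 lower against a log2FC of 0.2, where CNGA3B (FDR = 0.0926) and GNAT2 (FDR = 0.159, edgeR) were lost. GNAT2 at 18 against 12 weeks also lost its call with both other filters, without abundant loci in the scaling and in the fit of 20 fish (FDR = 0.0525 to 0.0969, edgeR), and with library size (0.453), the RPE score (0.434) and glmTreat (0.379, all edgeR). Loci past both thresholds at 18 against 6 weeks were 183 higher and 284 lower, against 322 and 657 without a filter, 532 and 113 with library size, and 164 lower with the RPE score and 439 lower with the CPM filter. At these thresholds the study reported more genes higher than lower. The balance here was the other way with TMM factors and the same way with library size.

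Leaving out each fish gave 5 to 6 lower cone loci at 18 against 6 weeks, 3 to 5 at 18 against 12 weeks and 0 to 1 at 12 against 6 weeks. All loci lower in these fits numbered 1960 to 2306 at 18 against 6 weeks and 807 to 996 at 18 against 12 weeks. All loci called at 12 against 6 weeks ranged from 137 to 302 higher and 99 to 310 lower, the highest of both without 18-week fish 1. Cone to rod ratios passing numbered 2 to 5 at 12 against 6 weeks, 2 to 6 at 18 against 12 weeks and 6 to 7 at 18 against 6 weeks. At 12 against 6 weeks the log2FC ranged from -0.036 to 0.026 for CNGB3, -0.072 to 0.0094 for GNAT2, -0.18 to 0.064 for GRK7A and -0.13 to 0.0088 for PDE6C. GNAT2 to GNAT1 ranged from -0.33 to 0.040 (18 against 12 weeks). At 18 against 6 weeks ARR3(1OF2) to GRK7A ranged from -0.33 to 0.025, PDE6C to GRK7A from -0.281 to 0.058 and GNAT2 to GNB3A from -0.13 to 0.014, and 11 to 14 of the 21 ratios among cone loci passed.

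Fish numbers did not pair the samples: 0 of 10 same-numbered pairs correlated over 0.1 at 18 against 6 and 12 against 6 weeks, and 2 of 10 at 18 against 12 weeks. With the replicate block 5 cone loci were again lower at 18 against 6 weeks, and GRK7A to GRK1B (adjusted p = 0.0442, permutation test) passed at 12 against 6 weeks. How many of all loci were lower with this block is not given. In the same permutation tests CNGB3 to CNGB1A at 18 against 12 weeks (0.0557) and GNAT2 to GNAT1 at 12 against 6 weeks (0.0684) did not pass with this block. GNB3A had the lowest counts of the tested cone loci, 67 to 173 per fish.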
